A study of Danio rerio with 2 samples.

Results

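Erythroid cells were taken as the cells with at least 3 unique molecular identifiers (UMIs, each a counted mRNA molecule) of *alas2* and at least 3 of *slc4a1a*. The rule found 2124 of the 25864 cells, of which 1657 were among the 16400 WT cells and 467 among the 9464 akt mutant cells. Because the measured values of these 2 genes chose the cells, their levels are given as a description only.

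The cells were *kdrl*:mCherry+ cells sorted from zebrafish embryos at 24 hpf, with a single droplet library per genotype. The WT embryos carried the Tg(*kdrl*:mCherry) reporter, and the aktΔ/Δ embryos (akt mutant below) carried it together with small insertions or deletions in all Akt genes, which are *akt1* ya348, *akt2* ya349, *akt3a* ya350 and *akt3b* ya351. The paper's methods place the mutant lines in a background that also has a *flt4*:YFP reporter. The fish were untreated. The *kdrl* promoter drives the reporter in endothelium, so the gate was set on an endothelial gene and the erythroid cells are those that came with it. Embryos were pooled, their number is not given in the sources used here, and no label ties a cell to an embryo. No test between genotypes was therefore possible, and every interval below covers counting error only, at 95%.

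The first red cells of the zebrafish arise in the intermediate cell mass from mesoderm that also gives endothelium, enter the circulation at about the stage sampled here and express embryonic globins. Gata1 directs the program, Alas2 starts heme synthesis in the mitochondrion and transferrin receptor 1 brings in iron. Slc4a1 (band 3) is the anion exchanger of the membrane and is tied to its spectrin skeleton. As these nucleated cells mature, globin mRNA takes a growing share of the transcriptome while ribosome biogenesis and Myc decline.

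Markers that the rule did not use fitted the name of the cells. *gata1a*, which encodes the leading transcription factor of the lineage, was at 181 CPM (UMIs of a gene per 1000000 UMIs of the cells) in WT erythroid cells and 169 CPM in akt mutant erythroid cells, against 8.32 and 4.13 CPM in all other cells. The iron uptake receptor gene *tfr1a* was at 900 and 827 CPM against 39.7 and 26.8 CPM. *hbae3*, an embryonic alpha globin, was at 58689 and 45663 CPM against 2272 and 961 CPM, and *hbbe1.1*, an embryonic beta globin, at 27988 and 37467 CPM against 996 and 816 CPM. Among the 6587 genes with at least 200 UMIs in erythroid cells, 772 (11.7%) were at least 2 times higher there than in the other cells. Over both libraries together, among the genes with a gene name other than the rule genes and with at least 1000 UMIs, the strongest by this ratio were *hif1al2* (39.1 times), *klf1* (37.6 times), which encodes an activator of beta globin, *hemgn* (37.6 times), which encodes a nuclear protein of erythroid cells, and *tubb1* (37.5 times), a beta tubulin gene. These ratios describe cells picked by expression and are no test.

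**Figure D1:**
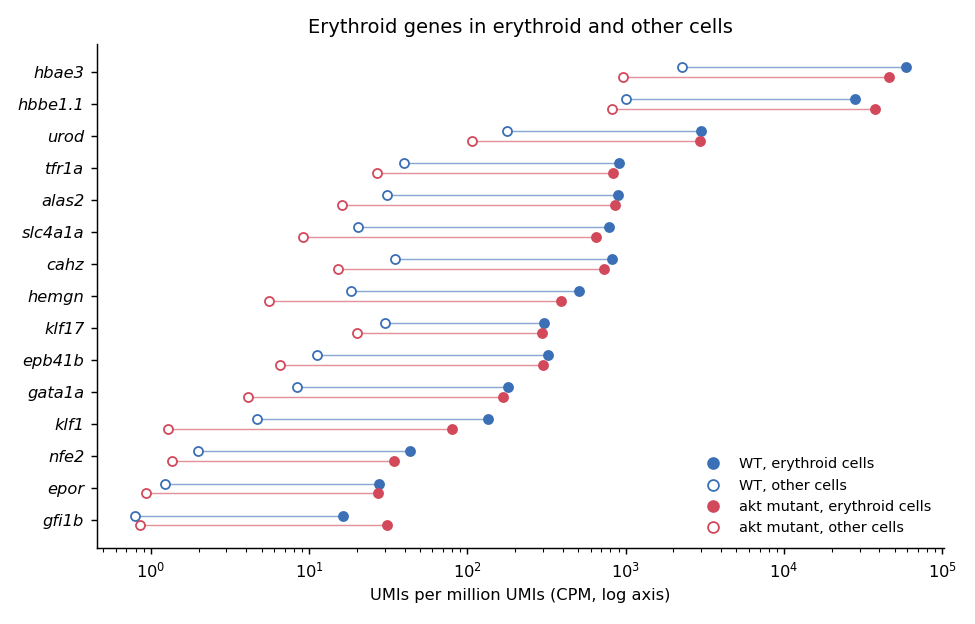
Level of 15 erythroid genes (horizontal log axis, CPM of summed UMIs) in erythroid cells (filled points) and in all other cells (open points) of the WT (blue) and akt mutant (red) libraries, 1 library each. Every filled point lies to the right of the open point of its library, and *gfi1b* is the gene with the widest gap between the filled points, 16.3 CPM in WT and 31.1 CPM in akt mutant.

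The *alas2* and *slc4a1a* UMIs themselves reached medians of 19 and 15 per WT cell and 28 and 19 per akt mutant cell. Just inside the rule, where the lower of both counts was 3, stood 82 WT and 20 akt mutant cells, with median globin shares of 15.8% and 22.8% of UMIs. Just outside it, at 2 UMIs, stood 68 WT and 38 akt mutant cells with 15.1% and 17.6%. In WT the border therefore runs through cells of like globin content rather than through a gap, while in akt mutant the cells inside had the higher median. Where the lower count was 1 UMI, 249 WT and 79 akt mutant cells had median globin shares of 2.82% and 8.97%. Beyond the rule, 1459 WT and 316 akt mutant cells had over 5% globin, with medians of only 874 and 969.5 UMIs.

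Erythroid cells formed 10.1% (9.65 to 10.6%) of the WT library and 4.93% (4.51 to 5.39%) of the akt mutant library, Clopper-Pearson intervals, a ratio of 2.05. Their median was 21421 UMIs in WT and 33539 in akt mutant against 5374 and 7834 in the other cells. They held 27.1% and 16.1% of all UMIs of their libraries. The rule itself favors deep cells, as it asks for at least 3 UMIs of each rule gene. Among the other cells, those with at least 3 UMIs of *mpx*, *lyz*, *mpeg1.1* or *mfap4* (myeloid) had medians of 13363 and 24905 UMIs. The akt mutant library was deeper in both kinds of cell, by 1.57 times in erythroid and 1.46 times in other cells. Cells with at least 2000 UMIs were also thinned to 2000 and the others left out. With at least 1 UMI of each rule gene, the shares of the thinned cells were 8.47% and 3.91%. Among cells with at least 5000 UMIs, an alternative added after seeing the data, the shares were 16.8% and 7.28%. The share was lower in akt mutant in both settings. It is a share of sorted cells, so the number of erythroid cells in the embryo and the number that passed the gate cannot be told apart. Other parts of the libraries differed in share too. The myeloid cells were 9.48% of WT and 2.75% of akt mutant. Of the cells left, those with at least 3 UMIs of *myb* were 0.494% and 1.11%. Of those then left, cells with both *kdrl* and *cdh5* were 36.7% and 47.8%.

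RNA of other cell types was present among the erythroid UMIs and was higher in WT. The 13 neutrophil markers summed to 339 CPM in WT erythroid cells and 54.6 CPM in akt mutant ones, the 13 skeletal muscle markers to 155 and 25.2 CPM, the 14 epidermal and epithelial markers to 561 and 298 CPM and the 21 endothelial markers to 439 and 253 CPM. In the other cells these lists summed to 4069 and 1483, 2123 and 592, 8105 and 8090, and 5511 and 6381 CPM. The neutrophil and muscle sums were thus higher in WT there too, and the endothelial sum was lower. Single cells ranged from 0 to 1017 neutrophil marker UMIs in WT and from 0 to 16 in akt mutant, and from 0 to 1604 and 0 to 5 for skeletal muscle. None of these 4 lists had a member at 0. The lysozyme gene *lyz* had at least 1 UMI in 81.3% of WT and 51.8% of akt mutant erythroid cells. At 2000 UMIs per cell *lyz* was found in 16.8% and 5.81% of erythroid cells and in 23.2% and 8.27% of the other cells. At that depth *hbae3* was found in 85.5% and 52.9% of the other cells, so globin RNA was spread through both libraries in the other direction too. Both *kdrl* and *cdh5*, genes of endothelial receptors and junctions, had a UMI in 212 WT and 34 akt mutant erythroid cells. The libraries shared 225 cell barcodes, of which 27 were WT erythroid cells, 15 akt mutant erythroid cells and 1 erythroid in both. The part of this RNA in the differences below was not tested, apart from the counts given without the cells concerned.

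Globin transcripts were 26.4% of erythroid UMIs in WT and 27.8% in akt mutant, so their total differed little, while the mixture of globin genes differed more. Single cells ranged from 0.982 to 42.7% in WT, with a median of 26.6%, and from 5.99 to 47.5% in akt mutant, with a median of 27.6%. Alpha globins made up 39.99% of globin UMIs in WT and 37.6% in akt mutant, and beta globins 60.0% and 62.4%. Some zebrafish embryonic genes, such as *hbae1* and *hbbe1*, are carried in 2 or more near-identical copies. How reads were shared out among copies is not given in the sources used here, so the levels of single copies are uncertain.

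Among the alpha genes, *hbae3* fell from 22.2% of globin UMIs in WT to 16.4% in akt mutant and *hbae1.3* from 2.80% to 1.55%, while *hbae1.1* was 14.8% and 19.4%. Over all UMIs *hbae1.3* was at 7391 and 4309 CPM, a log2 ratio of akt mutant to WT of −0.78 (−0.79 to −0.77). *hbae5* was at 358 and 637 CPM, a log2 ratio of 0.83 (0.79 to 0.87). Among the beta genes, *hbbe3* was the most abundant in both libraries, at 26.0% and 26.4%. *hbbe1.1* was 10.6% and 13.5%, *hbbe1.3* 15.8% and 14.2%, *hbbe1.2* 6.52% and 6.97%, and *hbbe2* 1.06% and 1.39%. The summed alpha globins came to 105547 and 104553 CPM and the beta globins to 158392 and 173846 CPM. The median log2 ratio was 0.65 over 6 alpha genes and 0.42 over 7 beta genes, adult ones included. For the alpha genes the median and the sum thus differed in sign. The trace adult genes *hbaa1* (0.92) and *hbaa2* (2.24) lay above the alpha median, and *hbba1* (3.10) and *hbba2* (1.41) above the beta median. Neither median therefore describes the embryonic genes alone.

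**Figure D2:**
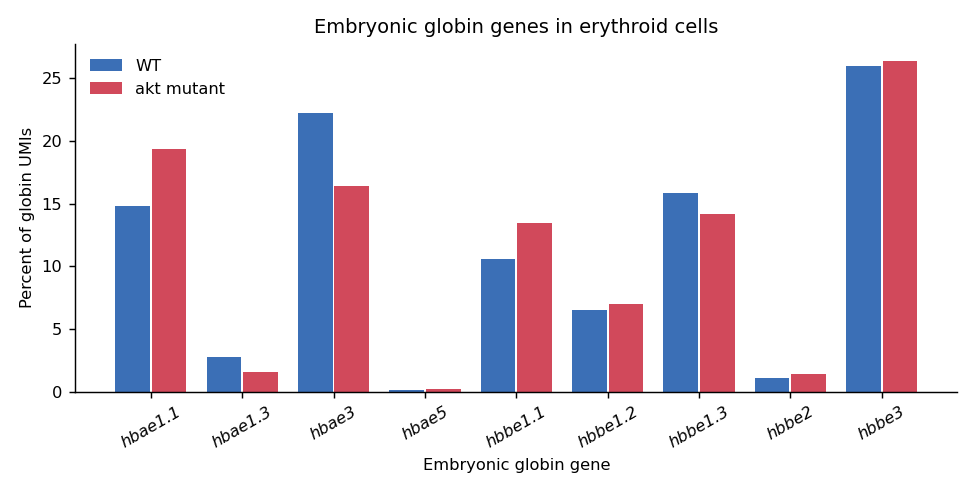
Share of globin UMIs (vertical axis, percent) held by each of 9 embryonic globin genes in erythroid cells of WT (blue bars) and akt mutant (red bars), 1 library each. *hbae3* and *hbae1.3* are lower in akt mutant, 16.4% against 22.2% and 1.55% against 2.80%, and *hbae1.1* and *hbbe1.1* are higher.

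Adult globins were traces. *hbba1*, an adult beta globin, had 95 UMIs in 19 WT cells and 345 UMIs in 18 akt mutant cells, and a single akt mutant cell held 57.7% of the latter. *hbaa1*, an adult alpha globin, had 255 UMIs in 70 WT cells and 204 in 16 akt mutant cells, of which 1 cell held 70.6%. The log2 ratio of *hbba1* was 3.10, or 1.86 without its cell, and that of *hbaa1* was 0.92, or −0.85 without its cell, so the direction of *hbaa1* rested on 1 cell. The ratios without a cell were added after seeing the data.

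The mixture of copies also varied from cell to cell. In 1577 WT and 458 akt mutant erythroid cells with at least 1000 globin UMIs, *hbbe1.1* was taken as a share of the UMIs of *hbbe1.1* and *hbbe1.2* together. The WT cells were divided into 3 ranges of this share. It was under 40% in 395 cells (25.05%) with a median of 25.3%, from 40 to 80% in 924 cells (58.6%) with a median of 65.5%, and 80% or more in 258 cells (16.4%) with a median of 96.0%. Within 5 points of the bounds at 40% and 80% lay 46 and 118 WT cells. The middle range was itself uneven, with 62 cells at 50 to 55% and 300 cells at 65 to 70%. In akt mutant the same ranges held 3, 411 and 44 cells, and no cell reached 95%, where 173 WT cells stood.

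A second pair on the alpha side followed the first. The share of *hbae1.3* among UMIs of *hbae1.1* and *hbae1.3* had medians of 9.23%, 17.4% and 27.0% over the WT cells of the low, middle and high range. Of the 395 cells in the low range 389 were under 13% by the alpha pair, of the 924 in the middle 700 were at 13 to 24% and 222 under 13%, and of the 258 in the high range 172 were at 24% or more. Across the WT cells the 2 shares had a Spearman rho of 0.82 (n = 1577 cells of 1 library, a description), and across the akt mutant cells 0.17 (n = 458 cells). The pairs have no gene in common but share each cell's depth. The akt mutant cells lay between 4.201 and 14.7% on the alpha pair and the WT cells between 4.85 and 34.3%. Median UMIs were alike over the WT ranges, at 21119, 22148 and 21704, and so were median globin shares, at 25.7%, 27.4% and 27.3%. In akt mutant the 44 cells of the high range had lower medians than the 411 of the middle range, 24236.5 against 34851 UMIs and 17.5% against 28.4% globin. Ranges were set after the values were seen. Which embryo a cell came from is not labelled, and a cause was not tested.

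**Figure D3:**
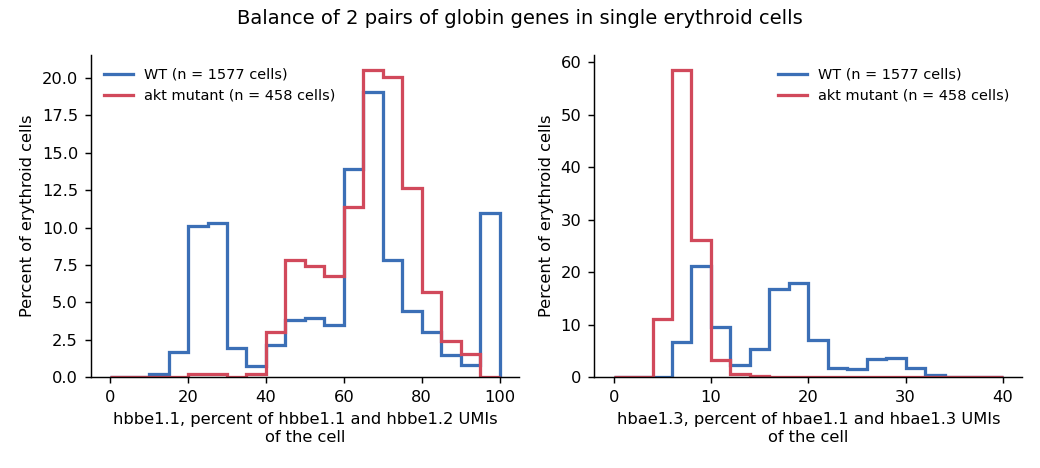
Distribution over single erythroid cells (vertical axis, percent of cells in 5-point bins at left and 2-point bins at right) of the *hbbe1.1* share of *hbbe1.1* and *hbbe1.2* UMIs and of the *hbae1.3* share of *hbae1.1* and *hbae1.3* UMIs, for 1577 WT (blue) and 458 akt mutant (red) cells. WT has its highest bins at 25 to 30%, 65 to 70% and 95 to 100% at left, with a low plateau from 45 to 60%, and 3 peaks at right, and the akt mutant cells gather in the middle at left and under 15% at right.

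Between genotypes, 266 of the 6587 genes (4.04%) were at least 1.5-fold higher in akt mutant erythroid cells and 653 (9.91%) at least 1.5-fold lower. The UMI minimum for these genes was set on the sum of both libraries, to which WT gave 34916052 UMIs and akt mutant 14806558. A gene seen mainly in WT thus passed at a lower CPM than one seen mainly in akt mutant. This favors lower genes in both percentages, which the lists below are compared with, by an amount that was not tested. Many of the lower genes were genes of other cells. Of 1895 genes whose level was at least 2 times higher in the other cells, 421 (22.2%) were lower in akt mutant erythroid cells and 56 (2.96%) higher. Without the cells of highest doublet score the lower genes numbered 393, and without the lowest of 4 bins of cells by globin share, an alternative added after seeing the data, 396. The higher genes numbered 268 and 245 in these settings. Leaving out cells also lowers the summed UMIs, so fewer genes can reach the minimum, and these counts are not shares of the 6587 genes. How much of the fall from 653 came from that was not tested. Among the 772 genes at least 2 times higher in erythroid cells than in others, 58 (7.51%) were higher and 77 (9.97%) lower in akt mutant. The median log2 ratio of these 772 was 0.019 and that of all 6587 was −0.036. With edgeR's TMM scaling every log2 ratio moved up by 0.11, and 377 genes were higher and 497 lower, so that the higher genes were 43.1% of those past the fold in place of 28.9%.

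The heme pathway had nearly the same level in both libraries. None of its 16 genes with at least 200 UMIs passed 1.5-fold in either direction, against 4.04% higher and 9.91% lower over all genes. The median log2 ratio of the 17 genes with at least 20 UMIs was −0.058, or 0.047 with TMM scaling, against −0.12 over all 12728 such genes. The list includes the rule gene *alas2*, and both medians are the ratio of *alas2* itself, so they are a description only. The sum of the list was 9179 CPM in WT and 8675 CPM in akt mutant. *urod*, for the decarboxylase that makes coproporphyrinogen, was highest at 2966 and 2946 CPM. *alad*, for the second step, was at 638 and 619 CPM, *hmbsb* at 637 and 607 CPM and *cpox* at 947 and 857 CPM. The lowest ratio of an erythroid member was that of *fech*, for the ferrochelatase that places the iron, at 156 and 112 CPM and a log2 ratio of −0.47 (−0.55 to −0.39). The highest was that of *abcb10*, a mitochondrial transporter gene of the heme pathway, at 121 and 171 CPM and 0.50 (0.43 to 0.57). *blvrb*, for biliverdin reductase B, was at 719 and 704 CPM.

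Iron genes were similar as well, with a median log2 ratio of −0.017 over 20 genes, or 0.089 with TMM scaling. Of 14 genes 1 was at least 1.5-fold higher and none lower, against 4.04% and 9.91% over all genes. The ferritin heavy chain gene *fth1a* was at 5334 and 5190 CPM, and *glrx5*, needed to build iron-sulfur clusters, at 1068 and 1072 CPM. *slc25a37* (mitoferrin 1), the carrier that brings iron into erythroid mitochondria, was at 253 and 183 CPM, a log2 ratio of −0.47 (−0.53 to −0.41). The 1 gene past the fold was *tfr1b*, a second transferrin receptor gene at a low level, 5.04 and 7.70 CPM, with a log2 ratio of 0.61 (0.26 to 0.96), or 0.55 with a rule of at least 1 UMI and 0.47 as a mean over cells.

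Among transcription factors of the lineage 1 of 16 was higher and 2 lower, counts near the 4.04% and 9.91% over all genes, with a median log2 ratio of −0.15 over 20 genes. *gfi1b*, which encodes a repressor needed in erythroid and megakaryocyte cells, was at 16.3 CPM (570 UMIs) in WT and 31.1 CPM (460 UMIs) in akt mutant, a log2 ratio of 0.93 (0.75 to 1.11). It was found in 25.3% and 49.0% of the cells at full depth, where the median erythroid cell had 21421 UMIs in WT and 33539 in akt mutant. These 2 shares are therefore not at equal depth. *klf1* was at 134 and 80.2 CPM, −0.74 (−0.83 to −0.65), and *cbfb*, for the partner of Runx factors, at 7.22 and 4.12 CPM, −0.81 (−1.24 to −0.40), or −0.56 without the cells of highest doublet score and −1.74 with every cell thinned to 5000 UMIs. *cbfb* was more abundant in the other cells, at 36.1 and 34.3 CPM. Over all alternatives *gfi1b* stayed between 0.63 and 1.03 and *klf1* between −0.83 and −0.64. *gata1a* had a log2 ratio of −0.10 (−0.17 to −0.035) or 0.0036 with TMM scaling, *klf17*, the primitive erythroid Klf, −0.051 (−0.10 to 0.00026) or 0.055 with TMM scaling, *tal1* −0.16 and *lmo2* −0.16. *hemgn* was at 504 and 392 CPM, −0.36 (−0.40 to −0.32).

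Membrane and skeleton genes had a median log2 ratio of −0.26 over 24 genes, and 2 of the 18 with at least 200 UMIs were lower, near the 9.91% over all genes. The lower genes were *tmod4*, a tropomodulin gene that caps actin filaments, at 50.5 and 31.4 CPM, −0.69 (−0.84 to −0.54) or −0.58 with TMM scaling, and *add3a*, an adducin gene that was higher in the other cells, at 7.99 and 4.93 CPM. The spectrin gene *sptb* was at 268 and 226 CPM, *epb41b* (protein 4.1) at 322 and 299 CPM and *cahz*, a carbonic anhydrase, at 814 and 727 CPM. *slc4a1a*, a rule gene, was at 785 and 648 CPM. The list includes this gene, so the median of the list is a description only. The Rh genes were slightly higher in akt mutant, with *rhag* at 58.8 and 68.6 CPM and *rhd* at 52.1 and 67.0 CPM.

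**Figure D4:**
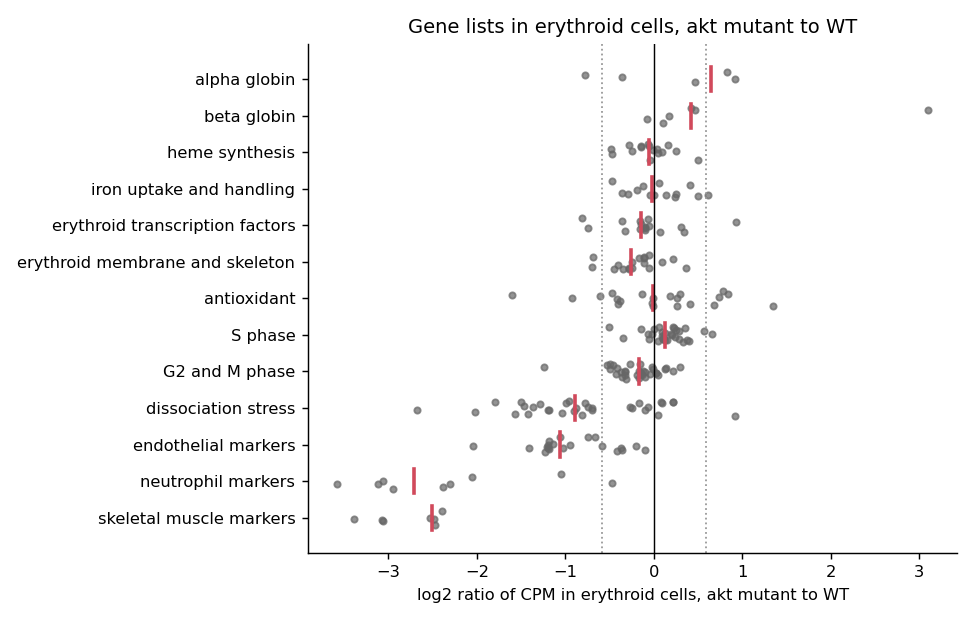
Log2 ratio of CPM, akt mutant to WT, in erythroid cells (horizontal axis) for the genes of 13 lists. Gray points are genes with at least 200 UMIs and at least 1 UMI in each library, red bars the median over genes with at least 20 UMIs, and dotted lines 1.5-fold. The heme list includes the rule gene *alas2*, whose ratio is the median of that list, and the membrane list includes the rule gene *slc4a1a*. Heme, iron and transcription factor genes lie around 0, with medians of −0.058, −0.017 and −0.15 (0.047, 0.089 and −0.044 with TMM scaling), and the neutrophil and skeletal muscle markers have the lowest medians of the lists drawn, −2.72 and −2.51, the first of which was −1.30 without the cells of highest doublet score.

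Several of the genes with the largest decreases were near absent from the akt mutant library. *capn8* (a calpain) had 270 UMIs in WT erythroid cells and 0 in akt mutant erythroid cells, at least 38.2-fold lower against a floor of 3 counts per library, and *cd59*, for a complement inhibitor, 221 and 0, at least 31.2-fold lower. *cd59* was also at 60.0 CPM in the other WT cells and 0.260 CPM in the other akt mutant cells. *fthl28*, a ferritin-like gene, had 335 and 4 UMIs, and *cyp46a1.2* 274 and 7. In all, 5 genes with at least 200 UMIs were at 0 in akt mutant erythroid cells, and 2 of the 5 were at 0 in every akt mutant cell.

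Several genes highly characteristic of the erythroid cells were lower in akt mutant without being absent. *hif1al2* was at 51.3 and 18.4 CPM, −1.48 (−1.67 to −1.30). *plac8l1* was at 76.4 and 30.1 CPM, −1.34 (−1.49 to −1.20), and *rpz5* at 96.9 and 8.58 CPM, −3.50 (−3.77 to −3.24). *drl*, for a zinc finger factor of early blood mesoderm, was at 102 and 54.6 CPM, with a log2 ratio of −0.90. Values in other cells were low for these genes, at most 13.3 CPM.

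Among the largest increases were *hist1h4l*, a histone gene, at 12.1 and 75.9 CPM, *acaa2*, of mitochondrial fatty acid oxidation, at 3.24 and 17.97 CPM, *desma*, a desmin gene, at 3.90 and 20.4 CPM, and *hsp90b1*, a chaperone of the endoplasmic reticulum, at 32.2 and 110 CPM. The log2 ratio of *desma* was 2.39 and ran from 1.63 to 3.07 over the alternatives. The log2 ratio of *hsp90b1* was 1.77 (1.66 to 1.88), and that of *hspa5*, the Hsp70 of the same compartment, 0.92. *hist1h4l* and *acaa2* were higher in the other akt mutant cells too, at 57.2 against 11.2 CPM and 8.58 against 2.18 CPM. Of genes at least 2 times higher in erythroid than in other cells, *tgm2b*, a transglutaminase gene, rose from 17.3 to 40.3 CPM, 1.22 (1.06 to 1.39).

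Stress genes of tissue dissociation were mostly lower in akt mutant, though their sum was not. Of 32, 21 were lower in akt mutant and 1 was higher, against 9.91% and 4.04% over all genes, with a median log2 ratio of −0.89 over 38 genes, yet the sum of the list was 6662 and 6897 CPM because *hspa8*, the abundant constitutive Hsp70, was at 4434 and 5143 CPM. *hsp70l*, an inducible Hsp70 gene, was at 137 and 21.3 CPM. In the other cells the median of the list was −0.49. Of 21 antioxidant genes 5 were higher and 3 lower, against 4.04% and 9.91% over all genes. *prdx2*, the peroxiredoxin of red cells, was at 3047 and 2200 CPM and *prdx3*, its mitochondrial relative, at 650 and 343 CPM, −0.92 as a log2 ratio, while *txn* (thioredoxin) was at 545 and 655 CPM and *sod2* at 14.7 and 25.3 CPM.

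Cell cycle genes were expressed in both libraries. S phase genes summed to 3337 CPM in WT and 3858 CPM in akt mutant, with 1 of 31 past 1.5-fold, *rrm2* of ribonucleotide reductase, at 204 and 323 CPM and a log2 ratio of 0.66, or 0.58 with every cell thinned to 5000 UMIs. G2 and M phase genes summed to 1815 and 1648 CPM, with 1 of 34 lower, and *mki67* was at 145 and 144 CPM. Over all genes 4.04% were higher and 9.91% lower. *mycb* was at 63.3 and 41.2 CPM, a log2 ratio of −0.62, or −0.51 with TMM scaling and −0.57 to −0.53 with other UMI minimums in the rule. *epor*, for the erythropoietin receptor, was at 27.7 and 27.1 CPM, and *jak2a*, its kinase, at 46.3 and 51.2 CPM.

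The targeted genes were scarce in these cells. *akt1* had 0 UMIs in erythroid cells of either library, which allows up to 3 UMIs in each, and *akt3a* 4 and 2, *akt3b* 23 and 8. *akt2* had 352 and 112 UMIs, 10.1 and 7.56 CPM, −0.41 (−0.73 to −0.10), or 0.23 with every cell thinned to 5000 UMIs. Counting near the 3′ end does not read small insertions or deletions, so these values do not show the mutations themselves. By qRT-PCR in pools of embryos at a later stage, the paper found reduced mRNA of each Akt gene. That is another stage and material, and no check of genotype was made here. Of 12 FoxO targets 1 was higher and 3 lower, and of 16 genes of the PI3K, Akt, mTOR and FoxO list 1 was higher and 1 lower, against 4.04% and 9.91% over all genes. The higher one was *eif4ebp3l*, for a repressor of translation, at 119 and 191 CPM and a log2 ratio of 0.68, or 0.53 with every cell thinned to 5000 UMIs.

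To describe how the cells varied among themselves, the 2124 cells were ordered by the globin share of their UMIs and cut into 4 bins at 22.0%, 26.8% and 30.7%. Levels were then taken as CPM of the UMIs that were not globin. The order used measured values of the same cells, and the bins are ranges with 166, 264 and 252 cells within 1 point of the cuts, so no test was made. WT had 428, 423, 431 and 375 cells from the lowest to the highest bin, and akt mutant 103, 108, 100 and 156. The highest bin thus held 22.6% of WT and 33.4% of akt mutant erythroid cells.

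Of 761 genes that are not globins and were at least 2 times higher in erythroid than in other cells, 188 (24.7%) were at least 1.5-fold higher in the highest than in the lowest bin in WT and 207 (27.2%) in akt mutant. At least 1.5-fold lower were 98 (12.9%) and 137 (18%). In both libraries 140 were higher and 66 lower, and 4 went opposite ways. *hemgn* went from 320 to 1052 CPM in WT and from 219 to 779 CPM in akt mutant, and *nt5c2l1*, a nucleotidase gene, from 134 to 450 and from 104 to 322 CPM. *tmod4* went from 22.9 to 126 and from 13.1 to 80.7 CPM, and *tspo*, a gene of the outer mitochondrial membrane, from 466 to 1506 and from 354 to 1384 CPM. Of these, *nt5c2l1*, *tmod4* and *tspo* were chosen for their rise. *rhd* went from 38.1 to 106 and from 36.5 to 152 CPM. *gata1a* and *fech* also rose in both libraries, as did *slc4a1a*, a rule gene given as a description only.

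Other genes went down as globin went up, *npm1a*, *ncl* and *gpd1b* among them chosen for it. *mycb* fell from 133 to 48.7 CPM in WT and from 99.1 to 33.7 CPM in akt mutant. *npm1a* (nucleophosmin) fell from 1057 to 499 and from 1301 to 679 CPM, and *ncl* (nucleolin) from 852 to 361 and from 1044 to 434 CPM. *klf17* fell from 456 to 378 CPM in WT and from 637 to 326 CPM in akt mutant. *gpd1b*, of glycerol phosphate metabolism, fell from 608 to 250 and from 876 to 419 CPM. Cell cycle genes did not go down together, as *ccnd1*, for cyclin D1, went from 329 to 468 CPM in WT and from 275 to 342 CPM in akt mutant, and *cdk1*, for the kinase of mitotic entry, from 143 to 225 and from 141 to 188 CPM. S phase genes stayed level in WT, at 4245 and 4223 CPM in the lowest and highest bin. In akt mutant they rose slightly, from 4759 to 5286 CPM, a log2 change of 0.11 to 0.15 over the settings. Heme genes summed to 9297 and 14553 CPM in WT and 9315 and 13373 CPM in akt mutant. These sums include the rule gene *alas2*, at 859 and 1474 CPM in WT and 835 and 1405 CPM in akt mutant.

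The differences in *klf1* and *gfi1b* were present in each bin. *klf1* was at 133, 181, 204 and 212 CPM in WT and 62.2, 109, 113 and 143 CPM in akt mutant, and *gfi1b* at 19.0, 21.9, 23.9 and 23.9 CPM in WT and 44.1, 44.8, 37.8 and 44.7 CPM in akt mutant. Depth and other cells' RNA varied along the same axis. Median UMIs went from 18039 to 23868 in WT and from 27580 to 36360 in akt mutant. Neutrophil markers summed to 1164 CPM in the lowest and 204 CPM in the highest bin of WT, and to 90.5 and 76.7 CPM in akt mutant. Endothelial markers fell from 1099 to 294 CPM and from 608 to 237 CPM. Without the cells positive for *kdrl* and *cdh5*, an alternative added after seeing the data, *npm1a* fell by 1.21 on the log2 scale in WT and by 1.04 in akt mutant.

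**Figure D5:**
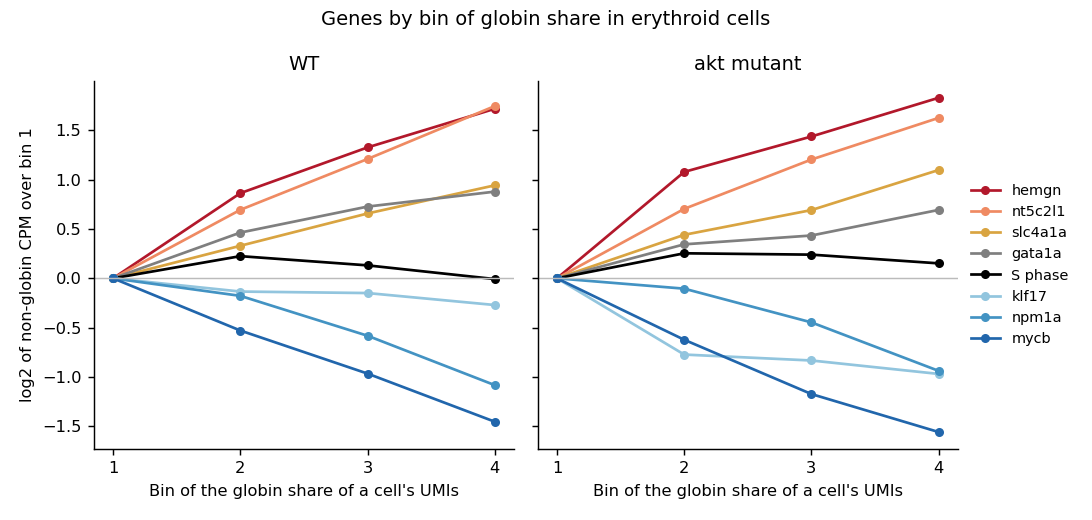
Log2 of the level in each bin of globin share over that in the lowest bin (vertical axis, CPM of UMIs that are not globin) for 7 genes and the summed S phase list, in WT (left) and akt mutant (right) erythroid cells, 1 library each. *hemgn* and *nt5c2l1* climb in both panels, *npm1a* and *mycb* descend, and the S phase list stays within 0.3 of its starting level.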

How the data were processed

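*kdrl*:mCherry+ cells of WT and aktΔ/Δ embryos at 24 hpf were measured by droplet 3′ RNA sequencing. The authors deposited 1 matrix of UMI counts (36351 genes by cells) per library. The processing notes name Cell Ranger 5.0.0 and Seurat, and neither build nor annotation of the genome was found there (not given in the sources used here). The sources name different versions of the library kit. Values are whole counts of detected molecules after cell calling and were used as deposited.

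Cells were chosen by the rule given above, and all 16400 and 9464 barcodes were kept, with no filter on genes per cell. UMIs were summed over cells and divided by the summed total. A 3′ UMI counts a transcript once, so levels were not scaled by length. Symbols were taken from the files, where 216 occur more than once. Levels and log2 ratios have exact Poisson or binomial intervals and shares have Clopper-Pearson intervals. With 1 library per genotype there was no test. Doublets were not removed in the main values. Scrublet (scanpy 1.11.5) marked 172 and 0 cells by its own threshold, so the 2152 WT and 717 akt mutant cells of highest score (0.8% per 1000 cells) were left out in an alternative. Other alternatives changed the UMI minimum, cell filter, depth, scaling (edgeR 4.0.16 TMM) and gene filter. Thinning left out the cells below the target depth, which at 5000 UMIs were 65 WT and 8 akt mutant erythroid cells. Calculations used Python 3.11.15, scipy 1.17.1 and R 4.3.3. The intervals were tested on simulated Poisson counts, the model they assume, which leaves out the clumping of UMIs in single cells.

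The cells, gene lists and tests were chosen with earlier results of these data known. Named genes were the cell markers, the Akt genes, the 12 highest and 12 lowest ratios among genes with at least 200 UMIs, the 20 genes with the highest ratio to other cells (at least 1000 UMIs), up to 6 genes of most UMIs per list and, for the globin, heme, iron, transcription factor and membrane lists, every member with at least 200 UMIs. Unnamed gene models were counted only. Genes outside the rule (*rpz5*, *tgm2b*, *nt5c2l1*, *npm1a*, *ncl*, *tspo*, *gpd1b*, the adult globins and the copy ranges) were picked after their values were seen. A gene that the rule would name is not reported here.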

Additional observations from a re-analysis of the deposited data

Results flagged for a closer look

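*desma*, a desmin gene, had a log2 ratio of akt mutant to WT of 2.39 in erythroid cells (136 and 302 UMIs, found in 5.31% and 34.5% of the cells), 1.63 with at least 1 UMI of each rule gene and 3.07 with every cell thinned to 5000 UMIs, and of −1.07 in all other cells (46.3 and 22.0 CPM). It stood out because the libraries moved one way in erythroid cells and the opposite way in the others. The difference between the ratios was not tested, since each genotype has 1 library. The shares of cells with *desma* are at full depth, which was higher in akt mutant.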

How the results depend on the processing

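Every setting left the erythroid share lower in akt mutant. The difference of −5.17 percentage points became −5.87 and −3.21 with at least 1 and at least 10 UMIs of each rule gene, −4.24 without cells positive for *kdrl* and *cdh5*, and −9.52 among cells with at least 5000 UMIs. Globin shares of erythroid UMIs in WT and akt mutant were 24.9% and 26.8%, 27.0% and 28.1%, and 28.1% and 28.7% with at least 1, 5 and 10 UMIs of each rule gene, 27.3% and 27.9% without high doublet scores, 26.9% and 28.1% without cells positive for *kdrl* and *cdh5*, 25.9% and 27.4% at 5000 UMIs per cell, and 29.05% and 30.03% without the lowest globin bin. Genes higher and lower numbered 65 and 258 at 2-fold, 559 and 1797 with at least 50 UMIs per gene, 132 and 265 with at least 500, 81 and 154 at 5000 UMIs per cell, where fewer genes reached 200 UMIs, and 58 and 77 among genes higher in erythroid cells. Lower genes numbered 393 without high doublet scores and 396 without the lowest globin bin. Apart from 2-fold, these settings changed which genes were compared, so the counts are not shares of the main set of genes. The UMI minimum per gene was set on both libraries together, so genes seen mainly in WT passed it at a lower CPM. The alpha globin median of 0.65 was 0.68 with at least 1 UMI of each rule gene, 0.68 with totals without globin and 0.75 with TMM. It rested in part on the trace adult genes *hbaa1* and *hbaa2*, whose ratios lay above it. The beta globin median of 0.42 was 0.45, 0.40 and 0.36 with at least 1, 5 and 10 UMIs, 0.37 without high doublet scores, 0.41 without cells positive for *kdrl* and *cdh5*, 0.28 at 5000 UMIs per cell, 0.45 with totals without globin, 0.53 with TMM, 0.30 with at least 100 UMIs per list gene and 0.33 without the lowest globin bin. The heme median of −0.058 was −0.18 at 5000 UMIs per cell and turned to 0.047 with TMM. The values −0.058 and 0.047 are those of the rule gene *alas2*, a member of that list. Without the akt mutant cell of most UMIs of the gene, added after seeing the data, the log2 ratio of *hbaa1* turned from 0.92 to −0.85 and that of *hbba1* was 1.86. With at least 10 UMIs of each rule gene the log2 ratio of *gata1a* to other cells was 3.37 in WT and 4.61 in akt mutant, since more erythroid cells then counted as other cells. From the lowest to the highest globin bin, log2 changes in akt mutant at 5000 UMIs per cell were 1.68 for *hemgn* and −0.82 for *npm1a*, and without cells positive for *kdrl* and *cdh5* *npm1a* changed by −1.21 in WT and −1.04 in akt mutant. The settings with at least 5000 UMIs, genes higher in erythroid cells and without the lowest globin bin, and the bins without cells positive for *kdrl* and *cdh5*, were chosen after seeing the data. Unless a value or the setting itself shows it, the cause was not tested. No paired analysis was possible because each genotype has 1 library. Depth limits genes with few UMIs, and fewer than 20 UMIs were left out of list medians.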
